A study of Mus musculus with 16 samples.

Results

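The genes described here are 27 genes of the GABA and glycine inhibitory synapse, taken as a list by symbol from the 55385 gene identifiers of the study's count files: receptor subunits, the enzymes and transporters that make, load, clear and break down GABA, chloride transporters, and scaffold proteins. All 27 were found and all 27 passed the filter on low counts, among 16899 genes tested. RNA was sequenced from the dorsal hippocampus of mice injected with a recombinant adeno-associated virus (rAAV). The virus carried GFP in the groups called Control. In the other groups it carried Dnmt3a2, the shorter form of the DNA methyltransferase encoded by Dnmt3a. Every animal, controls included, received a virus and was trained 3 weeks later in contextual fear conditioning, in which a place is paired with a foot shock, and tissue was taken 1 day or 5 days after training. The 4 groups, Control_1d, Dnmt3a2_1d, Control_5d and Dnmt3a2_5d, held 4 libraries each. The labels used here give no strain, sex or age, no promoter for the virus and no share of cells infected, and it is not stated if libraries are of different animals. The p-values therefore measure the spread between these libraries, which may be technical.

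GABA is the main inhibitory transmitter of the forebrain. It is made from glutamate by 2 decarboxylases, Gad1 and Gad2, is loaded into vesicles by the transporter Slc32a1, and acts on GABA-A receptors, chloride channels of several subunits whose composition sets their place on the cell and their kinetics, and on GABA-B receptors, which signal through G proteins. Inhibition through GABA-A receptors depends on low chloride inside the neuron, which the exporter Slc12a5 keeps down against the importer Slc12a2. Glycine receptors are related chloride channels, and they share with GABA-A receptors the scaffold protein gephyrin, encoded by Gphn.

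Levels are given as CPM, the count of a gene scaled to the size of its library and comparable between libraries, as mean ± SD over the 4 libraries of a group. Libraries held 28.64 M to 29.96 M estimated counts. The delivered gene was raised as labelled: Dnmt3a lay between 32.7 and 37.7 CPM in the Control libraries and between 623 and 1250 CPM in the Dnmt3a2 libraries. Markers of hippocampal excitatory neurons were high throughout, with Prox1 of dentate granule cells at 155 CPM on average and Neurod6 of pyramidal cells at 339 CPM. The 20 genes taken as interneuron markers were all detected, from 2.30 CPM for Tac1 to 440 CPM for Cck. The choroid plexus list, 10 of whose 10 markers were tested, stood apart in Dnmt3a2_1d replicate 1 and Dnmt3a2_5d replicate 1, with 1181 and 1828 summed CPM against 131.3 to 370.2 in the other libraries. In those libraries and in Control_1d replicate 1, 8 interferon-response genes summed to 43.19 to 78.69 CPM, against 16.04 to 30.04 CPM elsewhere. In bulk tissue, fewer cells of a type and less RNA per cell cannot be told apart.

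The result that stands out among the 27 genes concerns Gabra2, the GABA-A receptor alpha 2 subunit. The gene (ENSMUSG00000000560) is protein-coding and lies on chromosome 5 of mouse build GRCm38.p6, at 70957597 to 71095849 on the minus strand. It sits in a cluster of GABA-A subunit genes with Gabrg1 (70751047 to 70842617), Gabra4 (71569749 to 71658308) and Gabrb1 (71658113 to 72149037). Because the virus delivered an enzyme that adds methyl groups to cytosine in CG pairs, the 250 bases before the start of 3 receptor genes are shown, from RefSeq on GRCm38.p6, 5′ to 3′ along the gene, with CG pairs in capitals. They are Gabra2 at chr5:71095850-71096099, its neighbour Gabrg1 at chr5:70842618-70842867, and Gabra5, the alpha subunit of the list with the highest level per kilobase, at chr7:57510060-57510309. All 3 genes are on the minus strand, and none of the windows holds an annotated exon.
Gabra2: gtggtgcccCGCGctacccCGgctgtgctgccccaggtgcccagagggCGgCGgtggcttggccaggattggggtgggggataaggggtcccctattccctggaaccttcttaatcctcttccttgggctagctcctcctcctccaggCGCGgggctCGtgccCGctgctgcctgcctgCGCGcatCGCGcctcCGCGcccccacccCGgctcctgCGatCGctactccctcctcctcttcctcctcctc
Gabrg1: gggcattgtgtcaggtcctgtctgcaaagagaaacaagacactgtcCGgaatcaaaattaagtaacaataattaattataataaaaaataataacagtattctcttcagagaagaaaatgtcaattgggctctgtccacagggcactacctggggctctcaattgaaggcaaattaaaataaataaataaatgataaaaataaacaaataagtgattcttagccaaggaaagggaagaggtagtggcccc
Gabra5: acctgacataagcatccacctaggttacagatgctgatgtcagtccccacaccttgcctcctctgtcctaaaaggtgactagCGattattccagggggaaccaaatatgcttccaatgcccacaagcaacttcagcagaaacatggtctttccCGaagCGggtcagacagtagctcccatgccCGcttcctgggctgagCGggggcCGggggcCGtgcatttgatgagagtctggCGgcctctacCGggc
The motif counted was CG, which reads the same on both strands. The Gabra2 window holds 18 CG pairs, a number reached or passed by 21.7% of 32851 such windows of all genes. The Gabra5 window holds 9 (reached by 40.3%) and the Gabrg1 window 1 (reached by 92.1%). Windows were found for 24 of the 27 genes, 31 in all as some have several starts, with a median of 12 CG pairs against 6 in all windows. The set of all windows was not limited to the genes tested here. Several windows of the members hold annotated exon bases of the same gene, as for Gphn (250 bases), Gabarap (227) and Gabbr2 (159). Methylation was not measured in these libraries.

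Per kilobase of transcript, the scale on which genes can be compared with each other, the most abundant of the 27 was Gabarapl1, a ubiquitin-like protein of the GABARAP family that acts in autophagy and receptor traffic, at 339 CPM per kb. Gabbr1, the ligand-binding subunit of the GABA-B receptor, followed at 269 CPM per kb, then Gabarap at 158. The ranges of these 3 over the 16 libraries did not overlap. Slc12a5 (116 CPM per kb), Gabra5 (107), Gad1 (99.3) and Gabbr2 (89.6), the GABA-B subunit that couples to G proteins, came next, and each overlapped its neighbour in this order. Among the GABA-A subunits on the list, Gabra5 was followed by Gabra2 (41.7), Gabra4 (34.9) and Gabrb2 (20.1). The range of Gabra5 (97.7 to 114) lay above that of Gabra2 (35.3 to 50.1). The ranges of Gabra2, Gabra4 and Gabrb2 overlapped from one to the next. Lowest were the glycine receptor subunit Glra2 (2.18), Gabrg1 (1.80), Slc6a13 (1.39), a GABA transporter best known from meninges, liver and kidney, and Glra3 (0.488). Order in the middle depends on the length used: with the length of all exons of a gene, Gad1 stood at 26.3 CPM per kb and Gabra5 and Gabarap stood at 90.3 and 90.2. On that length Gabrb2 stood at 8.75, below Gabrb1 (13.3) and Gabrd (10.3). Levels of Slc32a1 and Gabarapl1 are less certain, since 24.2% and 25.2% of the 31-base runs of their transcripts also occur in the overlapping genes Gm14205 and 1700101I11Rik and the counting strand is not known.

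**Figure D1:**
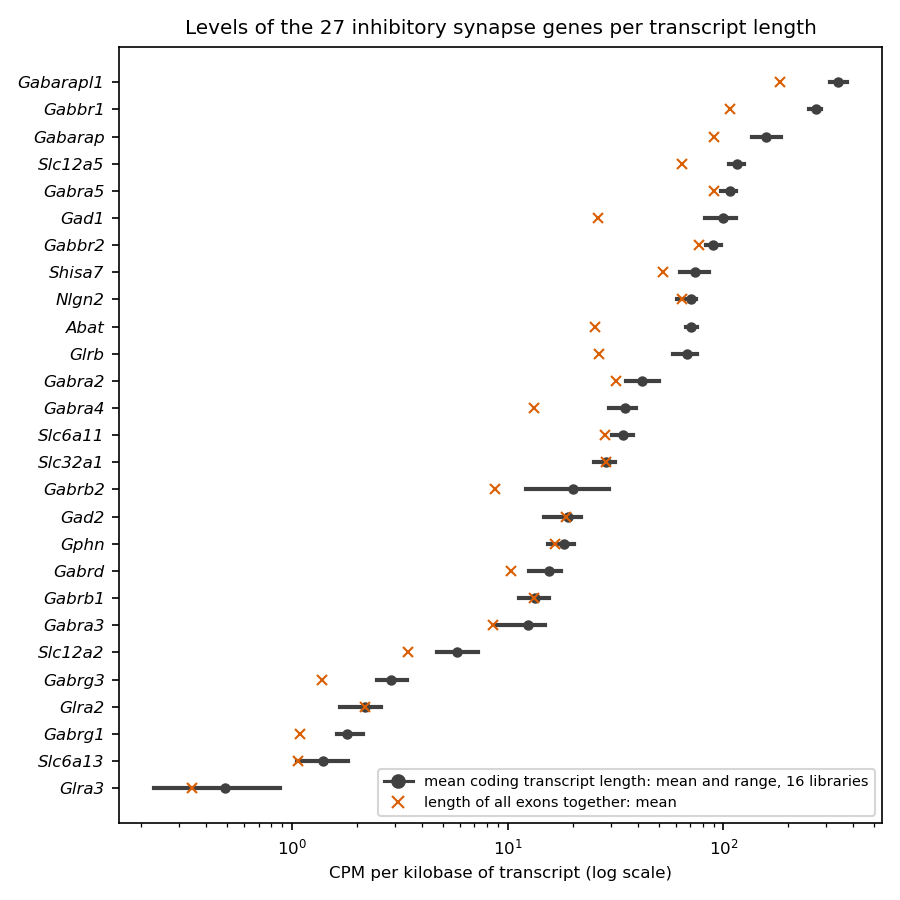
Level of each of the 27 genes in CPM per kilobase on a log axis, as the mean (point) and the range over 16 libraries (line) with the mean length of the coding transcripts, and as the mean with the length of all exons together (cross). Gabarapl1 is the highest at 339 CPM per kb and Glra3 the lowest at 0.488, and the cross lies well to the left of the point for Gad1.

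The first comparison asks how the Dnmt3a2 virus changed these genes 1 day and 5 days after training. Gabra2 was measured at 227, 210, 226 and 206 CPM in Control_1d and at 233, 266, 253 and 252 CPM in Dnmt3a2_1d. At 5 days it was at 241, 244, 230 and 240 CPM in Control_5d and at 245, 267, 293 and 267 CPM in Dnmt3a2_5d. Every Dnmt3a2 library thus lay above every Control library of its day, though at 5 days the highest Control and the lowest Dnmt3a2 library were nearly equal. Group means were 217 ± 10.6 and 251 ± 13.6 CPM at 1 day and 239 ± 6.0 and 268 ± 19.7 CPM at 5 days. The log2 fold change was 0.21 at 1 day (SE 0.055, edgeR adjusted p = 0.244) and 0.17 at 5 days (SE 0.055, edgeR adjusted p = 0.339), so neither day alone passed the threshold of 0.05. Averaged over both days, in a fit of all 16 libraries, Gabra2 rose 1.14-fold (log2 0.19, SE 0.039, 95% interval 0.105 to 0.268, edgeR adjusted p = 0.0186). The difference of the effect between the days was -0.04 (SE 0.078, edgeR adjusted p = 1).

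Gabra2 was the 1 gene of the 27 that was called, and only in the average over both days, where 1.43% of all genes were called. No member fell by that test. The number of all genes called also moved with single libraries: 241 in the average became 121 without Control_5d replicate 4, 54 at 5 days became 22 without Dnmt3a2_5d replicate 4, and 15 at 1 day became 6 without Control_1d replicate 2. At 1 day 0 of 27 members were called by edgeR, against 0.0888% of all genes, and at 5 days 0 of 27, against 0.32%. DESeq2 and limma-voom also called 0 of 27 on each day. At an unadjusted p under 0.05 there were 2 members at 1 day, both higher (7.17% of all genes in either direction), 3 at 5 days, all higher (8.01%), and 6 in the average, 4 higher and 2 lower (12.1%). By role, Gabra2 was the 1 of 9 GABA-A subunits called in the average, and 0 of 2 GABA-B subunits, 0 of 6 genes of GABA synthesis and clearance, 0 of 2 chloride transporters, 0 of 3 glycine receptor subunits and 0 of 5 scaffold and partner genes were called. Log2 changes above 0 were found for 13 members at 1 day (50.9% of all genes), 15 at 5 days (52.8%) and 14 in the average (52.6%). The median log2 change of the members was -0.002 at 1 day, 0.013 at 5 days and 0.010 in the average, and that of all genes 0.003, 0.008 and 0.006. These medians turned sign with single libraries left out, from -0.033 to 0.022 at 1 day (without Control_1d replicates 4 and 3), from -0.027 to 0.049 at 5 days (without Dnmt3a2_5d replicate 2 and Control_5d replicate 2) and from -0.010 to 0.021 in the average (without Dnmt3a2_5d replicates 2 and 1). The count of members above 0 then ran from 10 to 17, from 12 to 21 and from 10 to 16. Most members had narrow intervals. In the average over both days the 95% interval of 23 of 27 lay within 1.25-fold either way, and the exceptions were Gabrb2, Slc6a13, Glra2 and Glra3. At single days this held for 20 and 21 members.

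**Figure D2:**
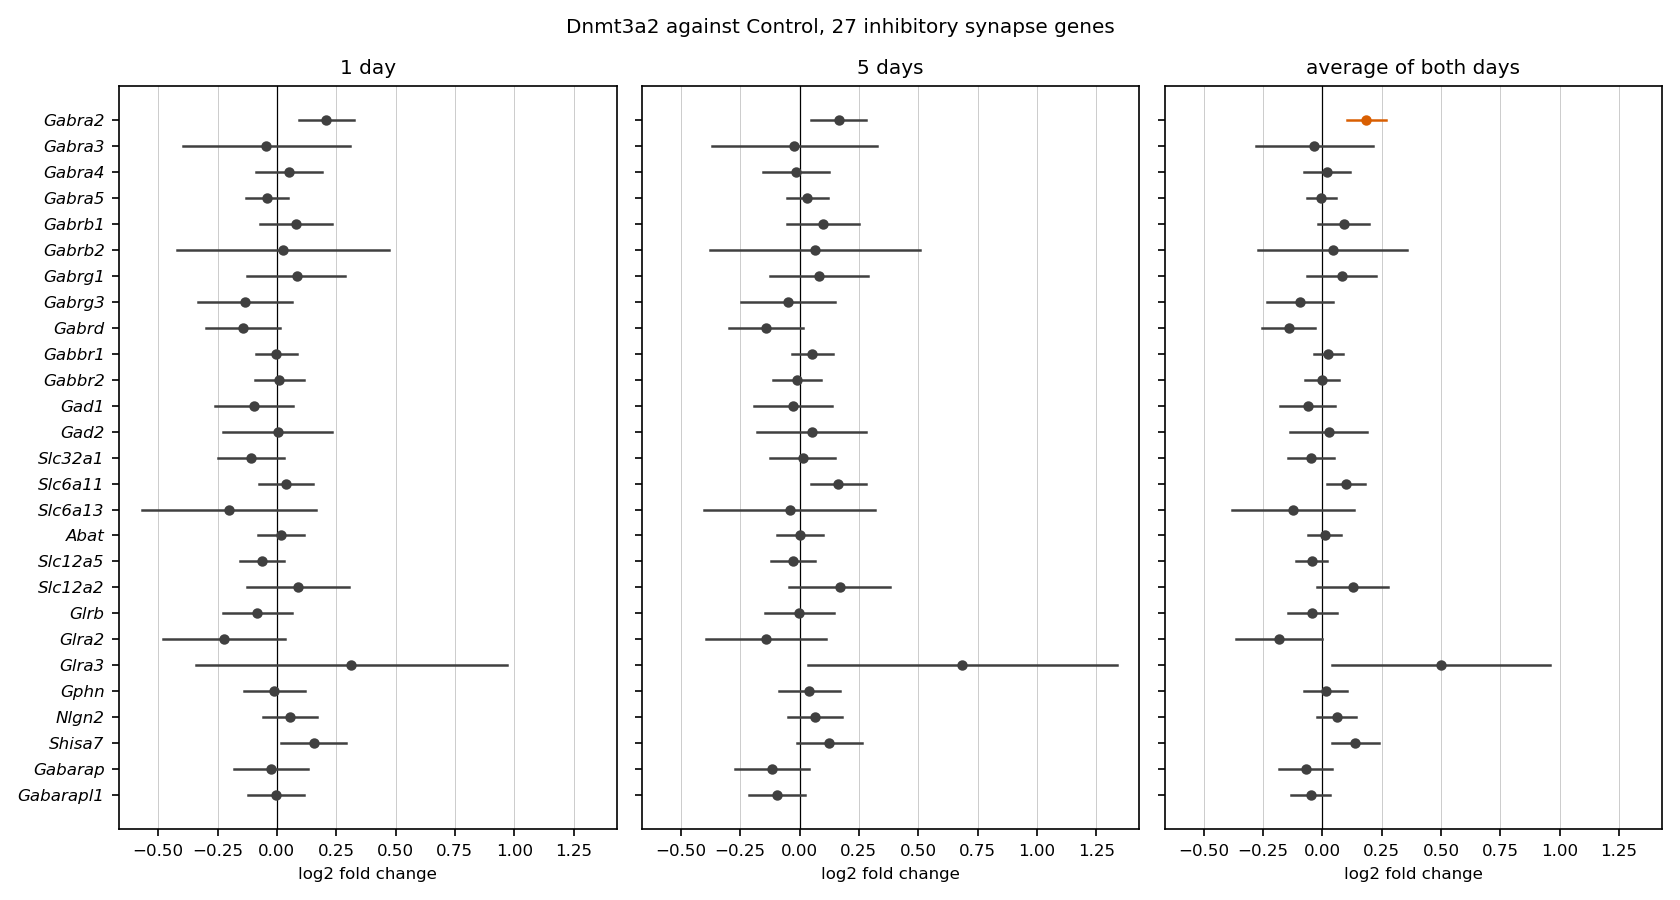
Log2 fold change of Dnmt3a2 against Control for each of the 27 genes, with 1 panel for each day and 1 for their average, and 95% intervals from edgeR (lines). Only Gabra2 in the average, drawn in orange, passed an adjusted p of 0.05, at 0.19, and most other points lie close to 0.

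No neighbour of Gabra2 in the chromosome 5 cluster passed the test. Gabrb1, the beta 1 subunit, differed by 0.09 (SE 0.051, edgeR adjusted p = 0.52) in the average, Gabrg1, the gamma 1 subunit, by 0.08 (edgeR adjusted p = 0.702), and Gabra4, an alpha subunit of extrasynaptic receptors, by 0.02 (edgeR adjusted p = 0.915). The difference between Gabra2 and these genes was not tested. Exons of Gabra4 and Gabrb1 overlap by 46 bases on opposite strands in the annotation, but their transcripts share no run of 31 bases. For Gabra2, 1.28% of such runs occur in transcripts of other genes. Gabra5, whose subunit is largely extrasynaptic and typical of the hippocampus, varied least of the list within groups (coefficient of variation 2.65%). It stayed at 244.4 to 286.2 CPM over all 16 libraries. Its log2 change was -0.04 at 1 day, 0.03 at 5 days and -0.004 in the average, the last with a 95% interval from -0.066 to 0.057.

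Gabrd, the delta subunit of the extrasynaptic receptors of dentate granule cells, lay lower with Dnmt3a2 without passing the test. Control_5d held 34.0, 32.5, 32.0 and 33.4 CPM and Dnmt3a2_5d 28.6, 29.8, 31.7 and 29.3 CPM, so these groups did not overlap. At 1 day Control_1d held 24.6, 31, 31.9 and 30.1 CPM and Dnmt3a2_1d 24.2, 26.1, 27.3 and 29.0 CPM, and the groups overlapped through Control_1d replicate 1. The average log2 change was -0.14 (SE 0.053, unadjusted p = 0.0142, edgeR adjusted p = 0.237). Over all genes, 6.29% did not overlap between the groups at 5 days and 3.43% at 1 day, and among the members there were 3 (Gabra2, Gabrd and Shisa7) and 1 (Gabra2). The ratio of Gabrd to Gabra5 CPM was 0.120 ± 0.00457 in Control_5d and 0.106 ± 0.00569 in Dnmt3a2_5d, with 0.114 the lowest Control and 0.115 the highest Dnmt3a2 library. At 1 day the ratio was 0.112 ± 0.0139 in Control_1d (0.0912 to 0.122) and 0.104 ± 0.011 in Dnmt3a2_1d (0.0954 to 0.119), with overlapping libraries.

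The other GABA-A subunits moved less or varied more. Gabrg3, a gamma subunit, differed by -0.09 (edgeR adjusted p = 0.639) and Gabra3, an alpha subunit, by -0.03 (edgeR adjusted p = 0.943) in the average. Gabrb2, the beta 2 subunit of many synaptic receptors, ranged from 33.8 to 81.6 CPM over the 16 libraries, with a within-group coefficient of variation of 19.9% against a median of 6.65% for the 27 members and 9.43% for all genes. Its average difference was 0.04 (SE 0.145, 95% interval -0.27 to 0.359), which reached past 1.25-fold on the upper side. The GABA-B subunits were among the steadiest members. Gabbr1 was at 817 ± 35.4 and 815 ± 18.5 CPM at 1 day and at 829 ± 29.2 and 860 ± 14.4 CPM at 5 days in Control and Dnmt3a2, and Gabbr2 at 504 ± 14.1 and 508 ± 15.3, then 527 ± 19.5 and 523 ± 36.8 CPM. Their ratio stayed between 1.43 and 1.76 in all libraries.

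Shisa7, a transmembrane protein known as an auxiliary subunit of GABA-A receptors, was the second member by p-value in the average. It was at 352, 357, 296 and 318 CPM in Control_1d, at 406, 380, 367 and 320 CPM in Dnmt3a2_1d, at 333, 323, 336 and 336 CPM in Control_5d and at 384, 352, 346 and 364 CPM in Dnmt3a2_5d. The groups did not overlap at 5 days and overlapped at 1 day. Its average log2 change was 0.14 (SE 0.046, edgeR adjusted p = 0.162). Without Dnmt3a2_1d replicate 4, its lowest Dnmt3a2 library, the value was 0.17 (edgeR adjusted p = 0.0449), the 1 alternative of 29 under which a second member was called. The other scaffold and partner genes did not pass: Gphn differed by 0.02, Nlgn2, the adhesion protein of inhibitory synapses, by 0.06, Gabarap by -0.07 and Gabarapl1 by -0.05, with edgeR adjusted p from 0.581 to 0.931.

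**Figure D3:**
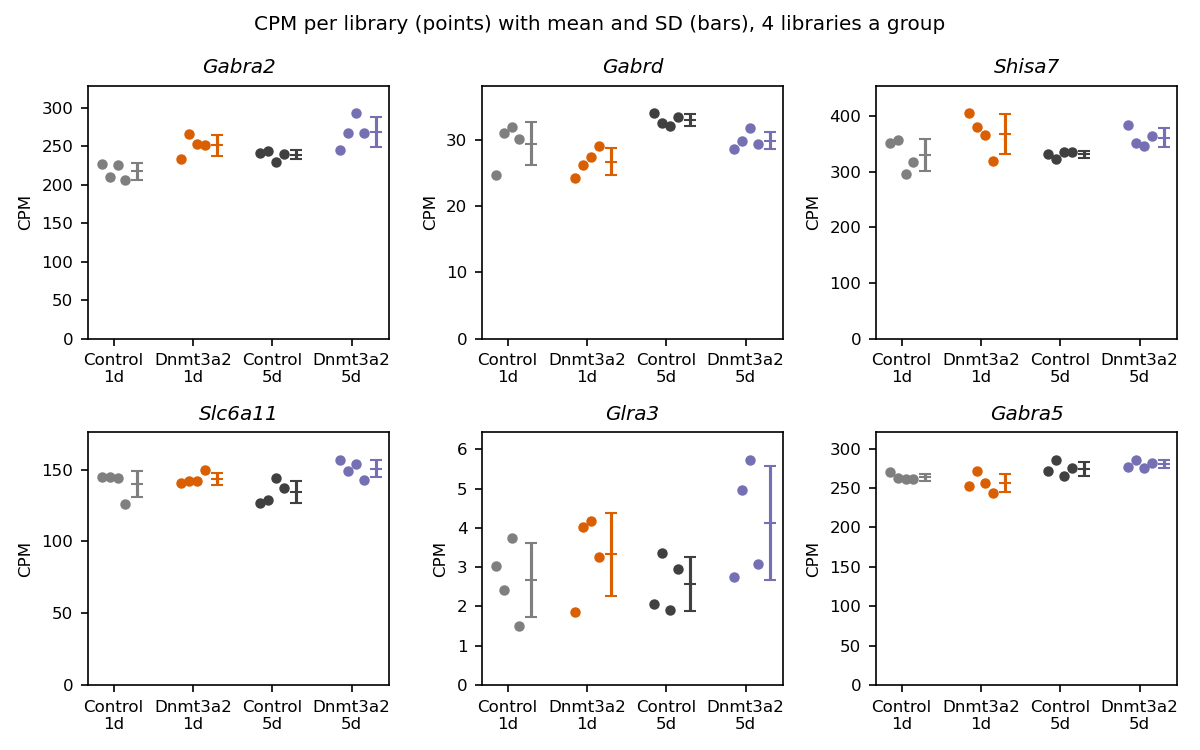
CPM in each library (points, replicates 1 to 4 from left to right) with mean and SD (bars) for 6 of the genes, each axis starting at 0. Gabra2 lies higher in every Dnmt3a2 library than in every Control library of the same day. For Gabra5 the Control and Dnmt3a2 libraries of each day overlap, and Glra3 scatters widely.

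Genes that mark GABA neurons themselves gave no call. Gad1 was at 200 ± 22.7 and 187 ± 12.0 CPM at 1 day and 211 ± 17.9 and 207 ± 14.3 CPM at 5 days, in Control and Dnmt3a2. Gad2 was at 106 ± 15.8 and 106 ± 6.37, then 110 ± 13.5 and 114 ± 13.3 CPM, and Slc32a1 at 80.8 ± 7.20 and 74.8 ± 6.29, then 81.0 ± 4.11 and 81.8 ± 2.58 CPM. Average log2 changes were -0.06 (SE 0.055), 0.03 (SE 0.077) and -0.05 (SE 0.047), with edgeR adjusted p of 0.72, 0.928 and 0.742. The ratio of Gad1 to Gad2 was 1.90 ± 0.162 and 1.76 ± 0.0455 at 1 day and 1.92 ± 0.0819 and 1.83 ± 0.127 at 5 days, with overlapping libraries on both days. A list of 20 interneuron markers, all of them tested and none at 0, summed to 1175 to 1251 CPM in Control_1d, 1133 to 1282 in Dnmt3a2_1d, 1192 to 1258 in Control_5d and 1252 to 1288 in Dnmt3a2_5d. Cck (440 CPM on average), Sst (195), Kcnc1 (178) and Nos1 (127) weigh most in this sum. By edgeR 0 of the 20 markers were called at 1 day, at 5 days or in the average (lowest edgeR adjusted p in the average 0.0535). At an unadjusted p under 0.05, 3 lay higher and 0 lower at 1 day (7.17% of all genes). At 5 days there were 2 higher and 2 lower (8.01%), and in the average 3 higher and 1 lower (12.1%). Libraries did not overlap for 2 markers at 1 day (3.43% of all genes) and 1 at 5 days (6.29%). How far these genes are confined to GABA neurons was not tested.

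The lowest library of a group was often the same for several of these genes. Gad2 was lowest of its group in Control_1d replicate 4 (84.8 CPM), Dnmt3a2_1d replicate 1 (98.5), Control_5d replicate 3 (92.0) and Dnmt3a2_5d replicate 1 (94.8). The interneuron marker score, the average over the 20 genes of log2 CPM centred on the 16 libraries, was the lowest of its group in those same 4 libraries, at -0.124, -0.181, -0.017 and -0.056. The summed CPM did not follow the score in Control_5d and Dnmt3a2_5d, where it was highest in these libraries (1258 and 1288). Of the 27 members, Control_1d replicate 4 was lowest of its group in 19, Control_5d replicate 3 in 16 and Dnmt3a2_5d replicate 1 in 18, where the same libraries were lowest for 27.2%, 31.1% and 28.3% of all genes. Dnmt3a2_1d replicates 1 and 4 were lowest in 12 each. The 4 libraries lowest for Gad2 each had the highest oligodendrocyte lineage score of their group (0.164, 0.305, 0.15 and 0.054, in that order). Their choroid plexus scores were also the highest of their groups, at 0.302, 2.712, 1.22 and 3.291. The part of these cell types in the low values was not tested, nor was what else these libraries share.

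**Figure D4:**
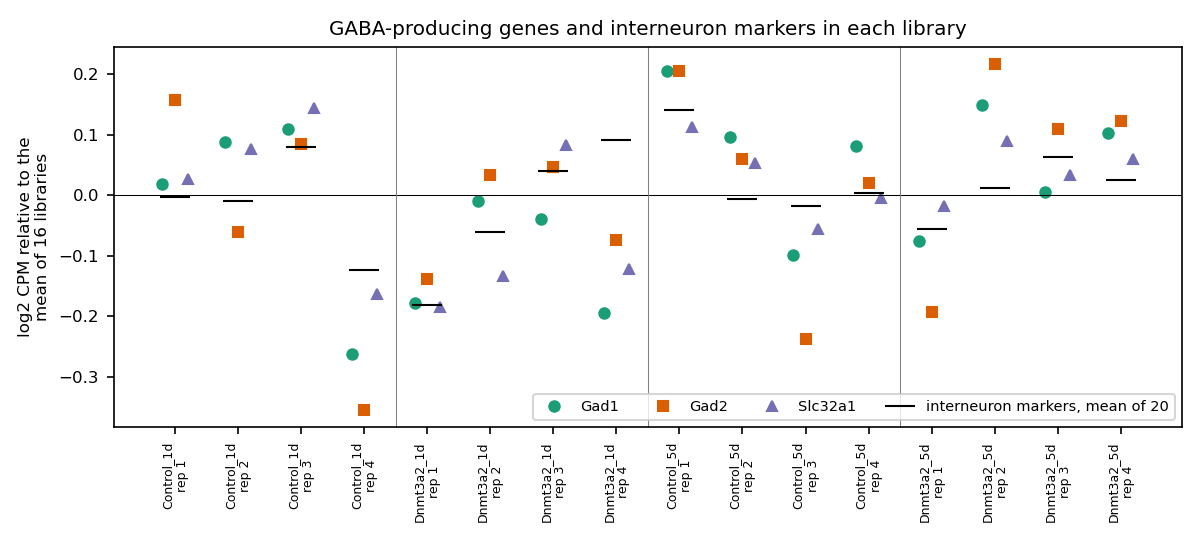
Log2 CPM of Gad1, Gad2 and Slc32a1 in each of the 16 libraries relative to the mean of all libraries (points), with the mean of the 20 interneuron markers on the same scale (bars). Control_1d replicate 4 and Dnmt3a2_1d replicate 1 are low for all 3 genes and for the markers, and the groups overlap.

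No gene of GABA clearance passed the test. Slc6a11, the GABA transporter of astrocytes, was at 127, 129, 144 and 137 CPM in Control_5d and 157, 149, 154 and 143 CPM in Dnmt3a2_5d, a log2 change of 0.16 (SE 0.055, unadjusted p = 0.00814, edgeR adjusted p = 0.352) with 1 library of each group overlapping. At 1 day the change was 0.04 (edgeR adjusted p = 0.934). The 10 astrocyte markers had scores of -0.096 to 0.072 in Control_5d and -0.098 to 0.023 in Dnmt3a2_5d. At 1 day the scores were -0.050 to 0.032 and 0.003 to 0.136. Abat, the mitochondrial transaminase that breaks GABA down, was nearly constant at 196 ± 8.11, 198 ± 6.23, 197 ± 5.88 and 198 ± 8.49 CPM in Control_1d, Dnmt3a2_1d, Control_5d and Dnmt3a2_5d. Slc6a13 was at 2.34 to 4.05 CPM over the libraries and differed by -0.12 (SE 0.123, edgeR adjusted p = 0.753) in the average. The 9 tested markers of meninges and fibroblasts summed to 52.76 to 141.8 CPM over the libraries. Another marker of the list, Slc22a2, was not tested and was at 0 in at least 1 library. Their part in the Slc6a13 values was not tested.

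The chloride transporters did not pass the test. Slc12a5 was at 477 ± 24.0 and 457 ± 13.5 CPM at 1 day and 496 ± 7.64 and 486 ± 20.1 CPM at 5 days in Control and Dnmt3a2 (average log2 change -0.05, SE 0.032, edgeR adjusted p = 0.627). Slc12a2 was at 36.3 ± 3.09 and 38.6 ± 7.09, then 35.9 ± 2.70 and 40.4 ± 2.88 CPM (0.13, SE 0.072, edgeR adjusted p = 0.514). The highest Slc12a2 library of each Dnmt3a2 group was the choroid-rich one, at 47.5 CPM in Dnmt3a2_1d replicate 1 and 43.7 CPM in Dnmt3a2_5d replicate 1. Choroid plexus is a known site of this transporter. Without these libraries the average change of Slc12a2 was 0.05 (edgeR adjusted p = 0.819), and that of Gabra2 was 0.22 (edgeR adjusted p = 0.00236). Both libraries were also the highest in interferon-response genes (47.99 and 78.69 summed CPM), so these features cannot be told apart here. The part of either in the values of Slc12a2 or Gabra2 was not tested. The ratio of Slc12a5 to Slc12a2 CPM was 13.2 ± 0.991 and 12.1 ± 1.99 at 1 day and 13.9 ± 1.18 and 12.1 ± 1.04 at 5 days, with overlapping libraries on both days.

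Of the glycine receptor genes, Glrb, the beta subunit that binds gephyrin, was the most abundant at 106.3 to 137.2 CPM and differed by -0.04 (edgeR adjusted p = 0.79). Glra3, an alpha subunit, had the widest fold of all members. It was at 2.07, 3.35, 1.90 and 2.95 CPM in Control_5d and 2.74, 4.97, 5.74 and 3.09 CPM in Dnmt3a2_5d, a log2 change of 0.69 (SE 0.31, unadjusted p = 0.0398, edgeR adjusted p = 0.598). In the 1 day groups it was at 3.03, 2.43, 3.74 and 1.49, and at 1.86, 4.03, 4.17 and 3.26 CPM. The libraries overlapped on both days and its within-group coefficient of variation, 32.4%, was the highest of the list. Glra2, the other alpha subunit, differed by -0.18 (SE 0.087, unadjusted p = 0.0493, edgeR adjusted p = 0.411).

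Beside the Gabra2 result, some marker levels differed between the groups. The 10 pyramidal and granule neuron markers summed to 12240 to 13500 CPM in Control_5d and 11420 to 11910 CPM in Dnmt3a2_5d, without overlap (edgeR called 1 of the 10 higher and 2 lower), and to 12500 to 13040 and 11810 to 13120 CPM in the 1 day groups, which overlapped. This sum is mostly Camk2a, at 8130 CPM on average, and Slc17a7, at 2280 CPM. At 5 days 5 of the 10 markers lay above 0 and 5 below, with a median log2 change of -0.092. Their score, which weighs the 10 equally, was -0.02 to 0.127 in Control_5d and -0.079 to -0.023 in Dnmt3a2_5d. In the average over both days, where Gabra2 was called, edgeR called 1 of these 10 markers higher and 3 lower, 1 of 10 astrocyte markers higher (lowest edgeR adjusted p of that list 0.0426) and 1 of 9 striatum markers lower (0.0443). The 10 choroid plexus markers all lay above 0 in the average, with a median of 1.82 and 0 called. Their sums stood apart only in Dnmt3a2_1d replicate 1 (1181 CPM) and Dnmt3a2_5d replicate 1 (1828 CPM). The other libraries of both viruses held 131.3 to 370.2 CPM. The part of these cell types in the rise of Gabra2 was not tested. Scores of 10 neocortex markers were -0.112 to 0.183 in Control_5d and -0.247 to 0.028 in Dnmt3a2_5d. At 1 day they were -0.023 to 0.196 and -0.229 to 0.104. The striatum list, 9 of 10 markers tested, summed to 213.1 to 235.4 CPM in Control_5d and 206.8 to 213.9 CPM in Dnmt3a2_5d. This sum is mostly Rasd2 (129 CPM on average) and Pde10a (70.3). The striatum scores at 5 days overlapped, at -0.064 to 0.075 and -0.106 to -0.005. At 1 day the sums overlapped as well, at 213.2 to 233.5 and 214.8 to 236.5 CPM.

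The other comparison asks how the genes differed between 1 day and 5 days after training. In Control, 22 of 27 members had a log2 change above 0 from 1 day to 5 days, with a median of 0.056, where 50% of all genes were above 0 and their median was 0.000. In Dnmt3a2 libraries the count was 23 of 27 with a median of 0.089, against 50.2% and 0.001 for all genes. By edgeR 0 of 27 members were called in either, as 0% of all genes were called in each. At an unadjusted p under 0.05, 3 members lay higher and 0 lower in Control (Gabra2, Gabra4 and Gabrd, against 3.54% of all genes), and 3 and 0 in Dnmt3a2 (Gabra5, Gabrd and Glrb, against 10.8%). DESeq2 and limma-voom also called 0 members in both. The Control values rested on 1 library. Without Control_1d replicate 4, 15 of 27 were above 0 and the median was 0.008. In Dnmt3a2, the count stayed between 20 and 24 and the median between 0.070 and 0.132 under 30 alternatives.

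Markers of other cells differed over the same days in Dnmt3a2 libraries, with 0 called. Of the 10 astrocyte markers 0 lay above 0 (median -0.10, 3 lower at an unadjusted p under 0.05), of the 10 oligodendrocyte lineage markers 2 (median -0.12, 2 higher and 3 lower), and of the 10 pyramidal and granule neuron markers 2 (median -0.08, 1 higher and 2 lower). All 10 choroid plexus markers lay above 0 (median 0.38), as did 13 of 20 interneuron markers (median 0.03). The choroid plexus sums stood apart in Dnmt3a2_1d replicate 1 (1181 CPM) and Dnmt3a2_5d replicate 1 (1828 CPM). In Control the astrocyte count was 5 of 10, the oligodendrocyte count 3 of 10 and the choroid plexus count 8 of 10. Their part in the shift of the members was not tested.

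Single genes showed the size of these differences. In Control, Gabra2 was at 206 to 227 CPM on 1 day and 230 to 244 CPM on 5 days, without overlap (log2 0.14, SE 0.055, edgeR adjusted p = 0.999). Gabra4 differed by 0.17 (SE 0.066, edgeR adjusted p = 0.999) in Control and Glrb by 0.15 (SE 0.069, edgeR adjusted p = 0.452) in Dnmt3a2, both with overlapping libraries. Gabrd went from 29.4 ± 3.28 to 32.9 ± 0.901 CPM in Control and from 26.6 ± 2.04 to 29.8 ± 1.36 CPM in Dnmt3a2, with log2 changes of 0.17 and 0.16 (SE 0.075 each, edgeR adjusted p = 0.999 and 0.442). Libraries did not overlap in Control. Gabra5 was at 253, 271, 256 and 244 CPM in Dnmt3a2_1d and 277, 286, 275 and 282 CPM in Dnmt3a2_5d, without overlap (log2 0.13, SE 0.042, edgeR adjusted p = 0.327). Gabbr1 in Dnmt3a2 libraries likewise did not overlap, at 794, 838, 809 and 820 CPM on 1 day and 839, 872, 862 and 868 CPM on 5 days (log2 0.08, edgeR adjusted p = 0.524). In all, 2 members in each virus group did not overlap between the days, against 2.4% of all genes in Control and 5.17% in Dnmt3a2. Between the days, the effect of Dnmt3a2 itself differed by the edgeR test in 0 of 27 members and in 0% of all genes, with 18 members above 0 against 51.2% of all genes. DESeq2 and limma-voom called 0 members here as well, and 0 of 27 members had an unadjusted p under 0.05, against 2.13% of all genes.

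**Figure D5:**
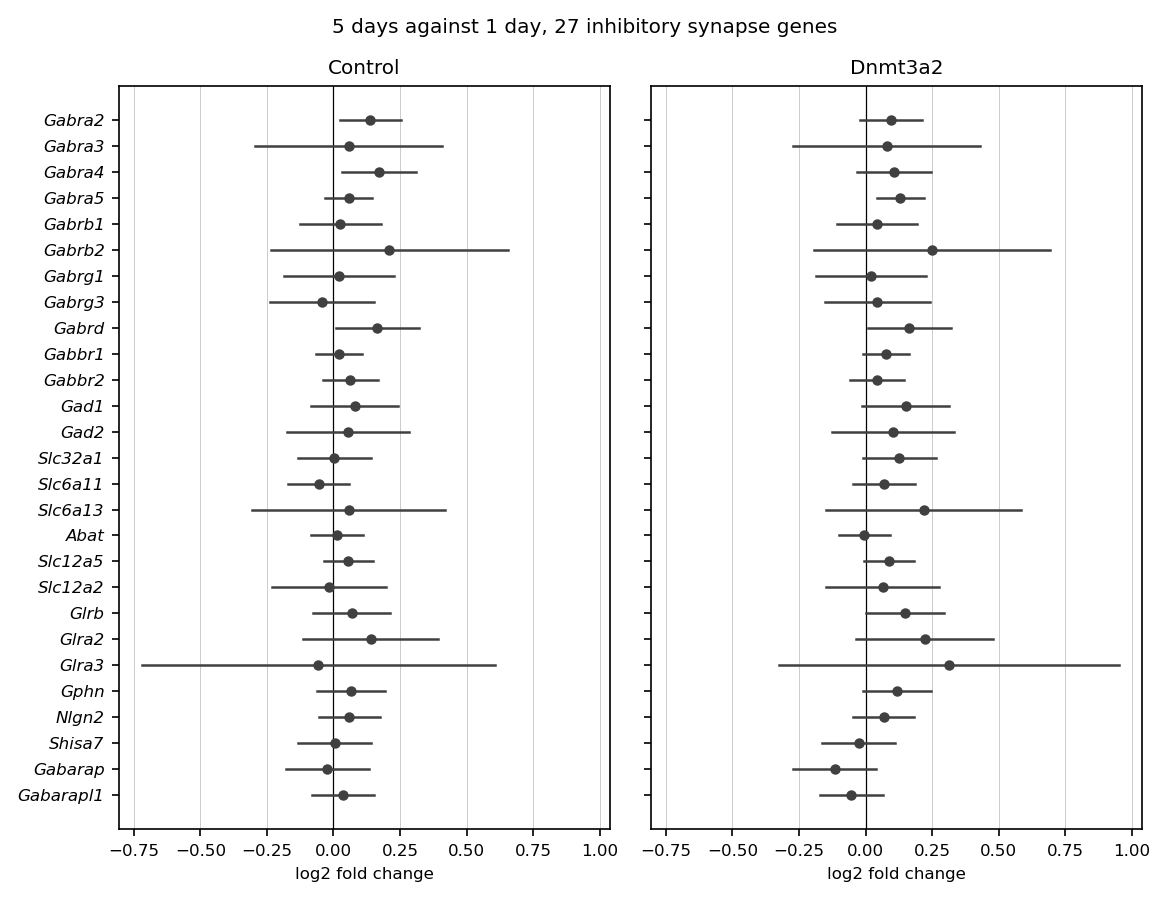
Log2 fold change from 1 day to 5 days for each of the 27 genes in Control and in Dnmt3a2 libraries, with 95% intervals from edgeR (lines). Most points lie slightly to the right of 0, 22 of 27 in Control and 23 of 27 in Dnmt3a2, and none passed an adjusted p of 0.05.

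Other genes of the pathway were taken from a list of 55 symbols: GABA-B auxiliary and effector proteins, organisers of the inhibitory postsynapse, enzymes and carriers of GABA and glutamine, regulators of chloride and bicarbonate, and further transporters and receptors. Of these, 50 were tested and none was called by edgeR in any of the 6 comparisons. In the average over both days 3 lay higher and 2 lower at an unadjusted p under 0.05, against 12.1% of all genes. The smallest p-values belonged to Trak2, a kinesin adaptor that binds GABA-A receptors (log2 -0.15, SE 0.047, edgeR adjusted p = 0.132), and Glul, the glutamine synthetase of astrocytes (0.17, SE 0.057, edgeR adjusted p = 0.166). Slc6a12, a betaine and GABA transporter, differed by -0.93 (SE 0.42, edgeR adjusted p = 0.371) at 0.149 to 0.376 CPM in the group means. The other 2 higher genes in the average, Nlgn3 (0.105, edgeR adjusted p = 0.399) and Maob (0.103, edgeR adjusted p = 0.41), were named after their values were seen. At 5 days 1 gene lay higher and 2 lower at an unadjusted p under 0.05, against 8.01% of all genes. The higher one was Clcn2, a chloride channel (0.20, SE 0.079, edgeR adjusted p = 0.471). The lower ones were Trak2 (-0.22, SE 0.067, edgeR adjusted p = 0.263) and, named after its value was seen, Igsf9b, an adhesion protein of inhibitory synapses (-0.21, SE 0.10, edgeR adjusted p = 0.622). The 6 GABA-B auxiliary and effector genes had 3 values above 0 and 3 below in the average.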

How the data were processed

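RNA-seq of 16 libraries of mouse dorsal hippocampus was used, each made from 500 ng of total RNA by a BGISEQ-500 protocol, per the labels. Build GRCm38.p6, kallisto 0.4.6 (a pseudoaligner), Trim Galore 0.6.4 (a read trimmer) and edgeR 3.17 are listed, without roles, in the submitters' processing notes. Annotation release and counting strand are not given. The deposited expected counts are estimated counts per gene, not normalised, 26.2% of them not whole, and were rounded. The deposited log2 values are log2 CPM and differed by at most 5.33e-15 from edgeR's log2 CPM of the same counts.

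Genes were filtered with filterByExpr, scaled with TMM and fitted with edgeR 4.0.16 (robust quasi-likelihood, all 16 libraries, a term per group), with Benjamini-Hochberg adjustment over 16899 genes and calls at 0.05. Intervals are 95%. Levels per kilobase use the mean length of basic coding transcripts in GENCODE M21. The reference table of gene names gave a symbol to 55144 of 55385 identifiers. The code was tested on simulated data. Library pairs were checked for duplicates (lowest chi-square per gene 4.41, over 120 pairs). The fit had no replicate block, since the labels tie libraries only by a number. The members, lists and alternatives were chosen with earlier results of these data known. All 27 members are named, those called or without overlap between groups with every library, as are the other pathway genes with the smallest p-values, up to 2 in each direction over the 3 Dnmt3a2 comparisons, since none was called.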

Additional observations from a re-analysis of the deposited data

Results flagged for a closer look

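Of 108 sets of 4 libraries (27 genes in 4 groups), 6 held a library far from its 3 fellows, by a gap above the 95% critical value of Dixon's test, and chance flags about 1 in 20 such sets. Control_1d replicate 4 was low for Gabbr1 (764 CPM against 830 to 838) and for Slc6a11 (126 against 144 to 145). Dnmt3a2_1d replicate 4 was high for Gabarapl1 (405 CPM against 357 to 358) and for Slc6a11 (150 against 141 to 142). Gabra5 stood at 270 CPM in Control_1d replicate 1 against 261 to 262, and Gabrb1 at 173 CPM in Control_5d replicate 4 against 182 to 184.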

How the results depend on the processing

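The rise of Gabra2 averaged over both days kept its call under each of 29 alternatives, with log2 changes of 0.135 (offsets for GC content and transcript length, added after seeing the data) to 0.235 (without the 3 libraries highest in interferon-response genes) and adjusted p up to 0.0482. Of these alternatives, 1 only loosened the threshold to 0.10 in the same fit, so it could not remove the call. With the replicate number as a block it was 0.185 (edgeR adjusted p = 0.0189), and the block changed no call of a member. Correlations between libraries of equal replicate number ran from -0.086 to 0.38, and 6 of 16 libraries correlated best with their own number. Dnmt3a2_1d replicate 1 reached 0.38 with Dnmt3a2_5d replicate 1 and 0.273 with Control_1d replicate 1, the highest values between groups. The remaining pair of those libraries, the 3 highest in interferon-response genes, stood at 0.223. Control_5d replicate 1 correlated with them at -0.086, -0.067 and -0.009. What libraries of equal number share was not tested. The number of members called in the average over both days was 1, and 1 to 2 with single libraries left out, 2 without Dnmt3a2_1d replicate 4. In the other 5 comparisons 0 members were called under all alternatives. In the average over both days, the 95% intervals of Gabrb2, Slc6a13, Glra2 and Glra3 reached past 1.25-fold in at least 1 direction.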
